A study of Mus musculus with 2 samples.

Results

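Dlk1, Meg3, H19, Igf2, Grb10, Gnas, Ndn, Plagl1 and Impact are imprinted genes, 9 of the 32285 genes counted in blood-forming stem and progenitor cells of aged mice. They were taken by symbol from the gene list of both count matrices. The set was chosen by its measured levels in each surface gate and condition and by joint detection in single cells, so those values are given as a description. The mice received deferoxamine, an iron chelator, in doses of 50 mg/kg, or else only HBSS, a buffered salt solution that served as vehicle. Dosing started at about 6 months of age and ran daily for 7 days, in cycles of 4 weeks, over 13 months. Lineage-depleted bone marrow was stained with antibodies that carry sequence tags and with 1 hashtag per condition, and LSK cells, which lack lineage markers and carry Sca-1 and c-Kit, were sorted and loaded together for 5′ sequencing of RNA and tags (CITE-seq). Each condition was 1 pool, called the chelator pool and the control pool here. The number, strain and sex of the mice were not given in the sources used here.

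An imprinted gene is expressed mainly from the copy inherited from 1 parent, because DNA methylation set in the germ line differs between the maternal and paternal copies. Many imprinted genes tune growth, and several are known for high expression in long-term blood stem cells, where they are tied to quiescence. Dlk1 encodes a membrane protein related to Notch ligands, and Meg3 is a non-coding RNA from the same locus, Dlk1 from the paternal and Meg3 from the maternal copy. Igf2 is a growth factor and H19 the non-coding RNA beside it. Grb10 is an adaptor that dampens insulin and insulin-like growth factor receptors. Ndn (necdin) restrains growth, Gnas encodes the stimulatory G-protein alpha subunit, Plagl1 is a zinc-finger transcription factor, and Impact blocks activation of the kinase GCN2. The counts do not tell the parental copies apart, and those of Gnas sum several overlapping transcripts of which some are imprinted.

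Coordinates are those that RefSeq gives on GRCm38.p6, which mm10 is built on. Dlk1 lies at chr12:109452485-109463336 and Meg3 at chr12:109540996-109571729, with 77.7 kb between them. H19 is at chr7:142575530-142578146 and Igf2 at chr7:142650768-142666816, with 72.6 kb between them. Ndn is a short gene at chr7:62348277-62349928. Grb10 is at chr11:11930499-12037428, Gnas at chr2:174284320-174346744 and Plagl1 at chr10:13090832-13131694.

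The RefSeq promoter table held 7 of the 9 members and had no entry for H19 or Impact. The 250 bases before the first Meg3 start and the single Ndn start are shown, since both RNAs were mostly in the same stem-cell gate. Their values by sex marker, given further on, were unlike, and those by surface tag were alike only in part. Both windows are on the plus strand of GRCm38.p6, at chr12:109540746-109540995 and chr7:62348027-62348276, and capitals mark matches to the motifs searched.
Meg3: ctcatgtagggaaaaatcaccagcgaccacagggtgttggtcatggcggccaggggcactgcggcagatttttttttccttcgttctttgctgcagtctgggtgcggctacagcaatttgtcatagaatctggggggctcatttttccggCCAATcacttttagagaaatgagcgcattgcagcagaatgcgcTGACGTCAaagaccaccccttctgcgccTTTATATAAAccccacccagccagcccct
Ndn: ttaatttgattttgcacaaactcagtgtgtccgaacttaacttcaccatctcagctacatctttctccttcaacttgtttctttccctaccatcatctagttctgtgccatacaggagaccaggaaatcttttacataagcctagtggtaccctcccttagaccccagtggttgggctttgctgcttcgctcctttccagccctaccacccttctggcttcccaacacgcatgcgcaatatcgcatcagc

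Motifs were searched on both strands. Of 32851 promoter windows of this length, 12.4% held TATAAA, while 1.55% held TGACGTCA, which reads the same on both strands. GGGCGG was in 32.7% of windows, CCAAT in 33.8% and AGATAA in 9.99%. The first Meg3 window held TATAAA once on each strand in overlapping letters, 20 to 29 bases before the start, TGACGTCA 50 to 57 bases before it and CCAAT 96 to 100 bases before it. The window of a second Meg3 start, inside the gene, had 0 CpG dinucleotides and 0 matches. The Ndn window held none of them, nor did the window of the single Dlk1 start. That Dlk1 window, at chr12:109452573-109452822, lay inside the gene span given above. The first Meg3 window had 10 CpG dinucleotides and that of Ndn 5, against a median of 6 over all windows. The first Grb10 start had 40, a number reached by 1.31% of windows, and 5 matches to GGGCGG.

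The chelator matrix held 4037 cell barcodes and the control matrix 4026, and 0 barcodes were shared. After a filter on genes and mitochondrial share, 3998 and 3969 cells with a median of 14455.5 and 13705 gene UMIs (counted RNA molecules) were used. All 4037 chelator barcodes and 4025 of the control barcodes carried more of their own hashtag. Both pools held cells with Y-linked transcripts and no Xist (2542 and 1952) and cells with Xist and no Y-linked transcripts (897 and 1417), so both pools mixed sexes, in different proportions. Sex and animal cannot be told apart. Gates were set from the CD135, CD48 and CD150 tags. The HSC gate (CD135- CD48- CD150+) held 1311 chelator and 1163 control cells, and the MPP4 gate (CD135+ CD150-) held 1285 and 1507. MPP1 (negative for all 3 tags) held 566 and 549 cells, MPP2 (CD135- CD48+ CD150+) 101 and 91, MPP3 (CD135- CD48+ CD150-) 615 and 504, and CD135+ CD150+ cells numbered 120 and 155. Of all cells, 22.2% lay within 0.25 units of the CD135 threshold. The HSC marker list (8 genes such as Procr and Hlf) summed to 1808 and 1864 CPM (counts scaled to a common total of gene UMIs) in the HSC gate, against 1002 and 1000 CPM over all cells. Stromal and mesenchymal markers summed to 7.22 and 6.78 CPM in that gate, with 2 of 9 at 0 over each pool.

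Of the 9 members, 6 reached 50 UMIs over both pools. Gnas was found in nearly every cell, with 35143 UMIs in the chelator pool and 32814 in the control pool. Grb10 had 2170 and 2082 UMIs, Impact 1893 and 1983, Ndn 1845 and 1587, Meg3 769 and 587, and Dlk1 547 and 287. The 3 remaining members were close to absent: Igf2 had 15 and 18 UMIs, H19 had 7 and 7, and Plagl1 had 3 and 7. Of the few Igf2 UMIs, 11 and 15 were in the HSC gate, and so were 6 and 4 of the H19 UMIs. No fold is given for these 3.

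Of the 6 measured members, 4 peaked in the HSC gate, by more than 10-fold over the MPP4 gate when all cells were summed. Dlk1 stood at 24.5 CPM in the HSC gate of the chelator pool (95% Poisson interval 22.3 to 26.8) and at 0.689 CPM in its MPP4 gate, and in the control pool at 14.2 (12.5 to 16.2) and 0.792 CPM. Meg3 stood at 33.0 and 0.387 CPM in the chelator pool and at 30.9 and 1.03 CPM in the control pool. The HSC gate thus held 86.8% and 81.9% of all Dlk1 UMIs in the chelator and control pools, and 83.2% and 86.9% of all Meg3 UMIs. Grb10 was at 76.3 CPM in the HSC gate and 6.33 CPM in the MPP4 gate of the chelator pool, and at 83.3 and 6.70 CPM in the control pool. Ndn was at 73.0 and 4.26 CPM, and at 68.1 and 4.79 CPM. These 4 members were the ones past 2-fold in each pool, where 12.4% of tested genes were past 2-fold higher and 6.97% lower in the chelator pool, together 19.4%. In the control pool 11.4% were higher and 6.37% lower, together 17.8%, and 10.3% were higher in both pools. The size of these ratios moved with the cells used. In Xist cells alone the HSC gate was 5.86-fold over the MPP4 gate for Dlk1, 7.29-fold for Grb10, 9.94-fold for Ndn and 14.2-fold for Meg3 in the chelator pool, and 8.11-fold for Dlk1 in the control pool. Without the 2 richest cells of each sum the chelator ratio of Meg3 was 246. With 1 pool per condition no test was run, and the intervals cover counting error only.

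Gnas and Impact were spread over all gates. Gnas was lowest in the HSC gate, at 496 CPM against 545 in the MPP4 gate of the chelator pool and 474 against 534 in the control pool. Impact was at 35.4 CPM in the HSC gate and 24.9 in the MPP4 gate of the chelator pool, a ratio of 1.42 (95% exact interval 1.27 to 1.59). In the control pool it was at 44.7 and 27.1 CPM, a ratio of 1.65 (1.48 to 1.83). Impact was thus the nearest below the 2-fold line, and Grb10, at ratios of 12.1 and 12.4, the nearest above it.

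**Figure D1:**
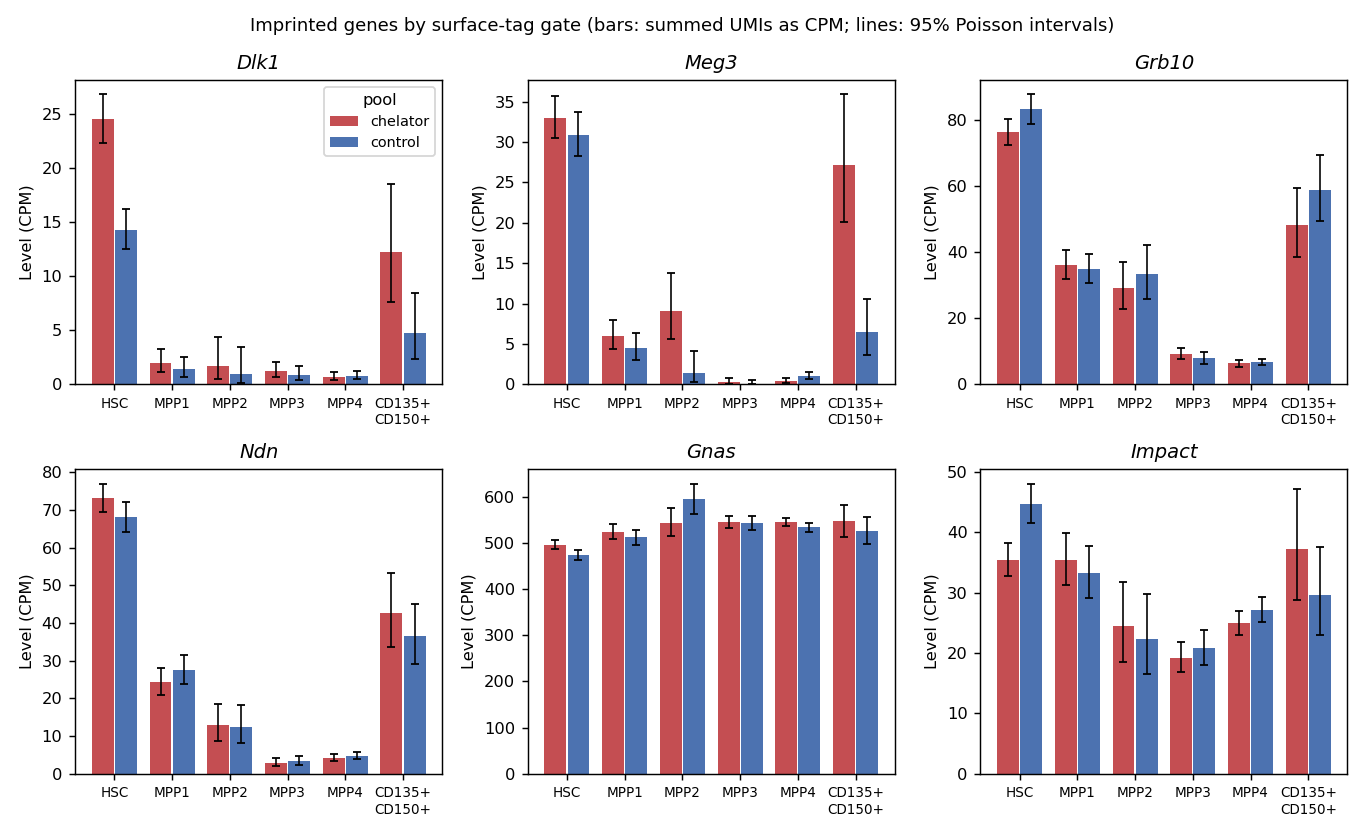
Level of each measured imprinted gene (vertical axis, CPM) in 6 gates (horizontal axis) in the chelator pool (red, left) and the control pool (blue, right); bars are summed UMIs scaled to all gene UMIs and lines are 95% Poisson intervals. Dlk1, Meg3, Grb10 and Ndn are highest in the HSC gate, and Gnas is lowest there.

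The 4 stem-gate members differed in how far they reached beyond the HSC gate. Grb10 and Ndn kept a middle level in MPP1, the gate that differs from the HSC gate in lacking CD150, with 36.1 and 35.0 CPM of Grb10 and 24.3 and 27.4 CPM of Ndn in the chelator and control pools. Dlk1 and Meg3 were lower still there: the HSC gate over the MPP1 gate gave a ratio of 12.5 (95% exact interval 7.49 to 22.5) and 10.2 (5.43 to 21.5) for Dlk1 and 5.48 (4.06 to 7.56) and 6.89 (4.82 to 10.2) for Meg3. The same ratio was 2.11 (1.86 to 2.41) and 2.38 (2.08 to 2.74) for Grb10 and 3.0 (2.57 to 3.52) and 2.48 (2.13 to 2.90) for Ndn. All 4 were past 2-fold here too, where 5.38% and 4.93% of tested genes were past 2-fold higher and 2.19% and 2.12% lower, together 7.57% and 7.06%. In the MPP3 gate, Meg3 was down to 4 UMIs in 615 chelator cells and 1 UMI in 504 control cells.

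The small CD135+ CD150+ gate came second for all 4 in both pools. For Dlk1 it held 12.2 CPM in the chelator pool, apart from the HSC gate above and MPP1 below, and 4.72 CPM in the control pool, where its interval overlapped that of MPP1. For Meg3 it held 27.2 CPM in the chelator pool, with 17 of 120 cells positive, and its interval overlapped that of the HSC gate. In the control pool it held 6.44 CPM, apart from the HSC gate, with 6 of 155 cells positive. Below it, the intervals of neighbouring gates mostly overlapped for Dlk1: MPP1, MPP2, MPP3 and MPP4 lay between 0.689 and 1.96 CPM in the chelator pool and between 0.792 and 1.40 CPM in the control pool.

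Per cell, Dlk1 and Meg3 were rare and Grb10 and Ndn common. In the HSC gate Dlk1 was found in 147 of 1311 chelator cells (11.2%, 95% Clopper-Pearson interval 9.56 to 13.0) and in 84 of 1163 control cells (7.22%, 5.80 to 8.86). Meg3 was found in 18.8% (16.8 to 21.1) and 16.6% (14.5 to 18.9) of them. The background was far lower: in the MPP4 gate, with a median of 16507 and 14524 UMIs per cell against 13312 and 12693 in the HSC gate, Dlk1 was found in 1.09% and 1.13% of cells and Meg3 in 0.389% and 0.929%. Grb10 was found in 61.0% and 61.0% of HSC-gate cells and Ndn in 60.3% and 55.7%. With every cell reduced at random to 5000 UMIs (138 chelator and 159 control cells over all gates were too shallow), the HSC-gate shares were 6.53% and 3.82% for Dlk1, 12.5% and 10.7% for Meg3, 30.1% and 31.7% for Grb10, and 29.9% and 30.1% for Ndn. At that common depth the pools' shares were close for Grb10 and Ndn, and for Dlk1 the ratio between them was the widest of the 4.

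Dlk1 also differed in how unevenly it was spread over cells. Its 3 richest chelator cells held 55, 40 and 25 UMIs, 21.9% of the total, and its 3 richest control cells held 21, 14 and 9. By contrast, 61.8% of Dlk1-positive chelator cells and 63.1% of control ones held 1 UMI. No cell held more than 13 Meg3 UMIs in the chelator pool or 14 in the control pool. The richest Dlk1 cell, which also held 10 Meg3 UMIs and 81 UMIs of HSC markers, had 0 UMIs of stromal and 0 of endothelial markers. The next 3 chelator cells and the richest control cell were in the HSC gate too and likewise had 0 of both. Because Dlk1 UMIs cluster in cells, the true uncertainty of a Dlk1 level is wider than its Poisson interval.

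The comparison of the pools asks how long-term iron chelation left these genes in aged mice. A log2 ratio past 0.322 in either direction is called past the line here. Over all LSK cells Dlk1 was the 1 member past it, where 8.28% of tested genes were. It stood at 8.22 CPM in the chelator pool and 4.54 CPM in the control pool, a ratio of 1.81 (95% exact interval 1.57 to 2.10). Meg3, just under the line, stood at 11.6 and 9.28 CPM, a log2 ratio of 0.317 (0.16 to 0.47). Ndn stood at 27.7 and 25.1 CPM, Grb10 at 32.6 and 32.9, Gnas at 528 and 519, and Impact at 28.5 and 31.4. Within the HSC gate 2 members were past the line, where 8.31% of tested genes were, 4.17% higher and 4.14% lower. Dlk1 was higher, at 24.5 and 14.2 CPM (ratio 1.72, 1.47 to 2.02), and Impact was lower, at 35.4 and 44.7 CPM (ratio 0.792, 0.713 to 0.880). Meg3 was at 33.0 and 30.9 CPM there, a ratio of 1.07 (0.95 to 1.20), and Grb10 at 76.3 and 83.3 CPM, a ratio of 0.916 (0.851 to 0.987). Leaving out the 2 richest cells of each sum brought the log2 ratio of Dlk1 to 0.77 over all cells and 0.69 in the HSC gate, against 0.86 and 0.78 with them.

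The Dlk1 values were also taken apart by sex marker. In Y-linked HSC-gate cells Dlk1 stood at 31.3 CPM in the chelator pool and 19.4 in the control pool, a ratio of 1.61 (95% exact interval 1.34 to 1.94). In Xist cells of the same gate it stood at 3.58 and 6.02 CPM, from 17 and 32 UMIs, a ratio of 0.596 (0.310 to 1.11), and 21 of those 32 control UMIs were in 1 cell. Over all LSK cells the ratio was 1.5 (1.26 to 1.78) in Y-linked cells and 0.991 (0.600 to 1.61) in Xist cells. With both sexes given equal weight it was 1.39 over all cells and 1.37 in the HSC gate. The chelator pool held the larger share of Y-linked cells. The difference between the ratios of Y-linked and Xist cells was not tested. Impact was lower in both kinds of HSC-gate cells, at 37.2 and 43.5 CPM in Y-linked cells (ratio 0.854, 0.743 to 0.981) and at 28.9 and 46.4 CPM in Xist cells (ratio 0.622, 0.501 to 0.770). Whether any of these differences holds across animals was not tested.

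Among Xist cells of the whole LSK pool, Meg3, Grb10 and Ndn were past the line higher and Impact lower, 4 of 6 measured members, where 11.5% of tested genes were past it, 7.03% higher and 4.51% lower. Grb10 stood at 38.3 CPM in the chelator pool and 25.3 CPM in the control pool, and Ndn at 27.1 and 18.97 CPM. The HSC gate made up 33.4% of Xist cells in the chelator pool and 24.0% in the control pool, and 32.0% and 31.2% of Y-linked cells. Inside the HSC gate the same Xist cells gave ratios of 1.13 (95% exact interval 0.978 to 1.30) for Grb10, 1.07 (0.919 to 1.252) for Ndn and 1.16 (0.783 to 1.73) for Meg3, and 1 of 5 members with enough UMIs, Impact, was past the line, where 15.2% of genes were, 7.43% higher and 7.73% lower. In Y-linked cells Dlk1 was the 1 member past the line over all LSK cells and in the HSC gate, where 8.52% and 9.43% of genes were. Over all LSK cells 3.85% of genes were higher and 4.67% lower, and in the HSC gate 4.56% and 4.87%. Grb10 was on the other side in Y-linked HSC-gate cells, at 73.2 and 89.4 CPM (ratio 0.819, 0.742 to 0.903).

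Within each pool, Dlk1 and Meg3 were the members that differed most by sex marker. In the HSC gate Dlk1 stood at 31.3 CPM in Y-linked cells and 3.58 in Xist cells of the chelator pool, and at 19.4 and 6.02 CPM in the control pool. Meg3 stood at 41.7 and 11.6 CPM in the chelator pool and at 43.9 and 9.97 CPM in the control pool. The log2 ratio, Y-linked over Xist cells, was 3.12 (95% exact interval 2.43 to 3.92) and 1.69 (1.14 to 2.28) for Dlk1 and 1.85 (1.44 to 2.27) and 2.14 (1.72 to 2.58) for Meg3. These 2 were the members past 2-fold, where 0.65% of tested genes in the chelator pool and 0.52% in the control pool were past 2-fold higher, 0.359% and 0.423% lower, together 1.01% and 0.944%. The Xist sums of Dlk1 are small: without the 2 richest cells of each sum its log2 ratio was 4.46 and 3.48. Grb10 gave log2 ratios of -0.19 and 0.28, Ndn 0.11 and 0.10, Gnas 0.10 and -0.16, and Impact 0.36 and -0.09.

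**Figure D2:**
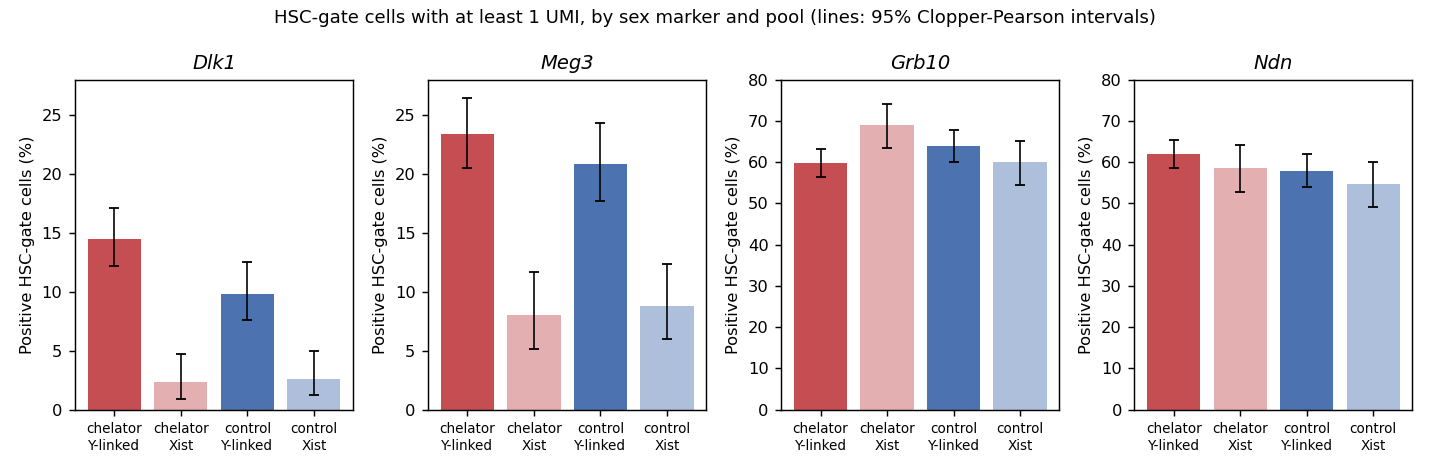
Share of HSC-gate cells with at least 1 UMI (vertical axis, percent) of Dlk1, Meg3, Grb10 and Ndn in Y-linked (solid) and Xist cells (pale) of the chelator (red) and control pools (blue); lines are 95% Clopper-Pearson intervals. Dlk1 was found in 14.5% of Y-linked and 2.33% of Xist cells of the chelator pool and in 9.85% and 2.65% of those of the control pool, whereas the shares of Grb10 and Ndn lie between 54.7% and 69.0%.

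The same held for shares of cells. Meg3 was found in 23.4% of Y-linked cells (95% Clopper-Pearson interval 20.5 to 26.4) and 8.0% of Xist cells (5.19 to 11.7) of the chelator HSC gate, and in 20.9% (17.7 to 24.3) and 8.82% (6.03 to 12.4) of those of the control HSC gate. The Xist cells were not shallower: their median was 14107 UMIs against 13348 in Y-linked cells of the chelator pool, and 13939 against 12610 in the control pool. Across 11304 genes with at least 50 UMIs in both pools, 10 genes, 0.0885%, were past 2-fold higher in Y-linked cells in both, and 0.15% lower. Of the 10, 4 are the Y-linked genes that define the cells, and the other 6 are Dlk1, Meg3, Ncam1, Tgfbi, Gm19696 and Gm14964. Dlk1 had the highest log2 ratio of these 6 in the chelator pool and Meg3 in the control pool. Rian, the non-coding RNA that follows Meg3 at 32.2 kb in the same locus, had 47 UMIs in Y-linked and 3 in Xist cells of the chelator HSC gate, and 38 and 3 in the control HSC gate. Of 28 and 27 further imprinted genes with enough UMIs, 1 (Rian) and 0 were past 2-fold. Rian just met the UMI minimum in the chelator pool and fell short of it in the control pool, so it could not be counted there. The median log2 ratio of these further genes was -0.0038 and 0.06, against 0.01 and 0.02 over all genes tested.

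**Figure D3:**
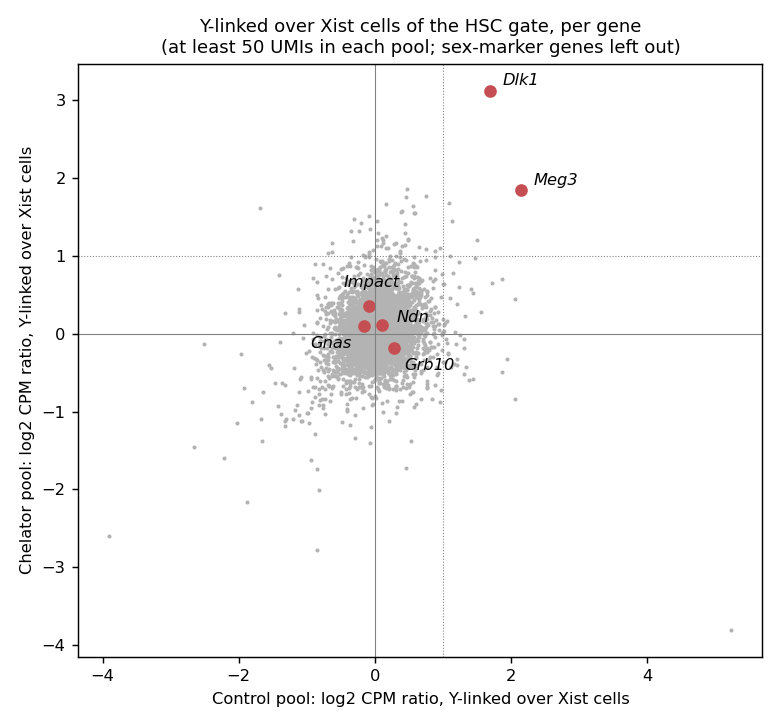
Log2 CPM ratio, Y-linked over Xist cells of the HSC gate, for each gene in the chelator pool (vertical axis) and the control pool (horizontal axis); the 6 measured imprinted genes are red, other genes grey, sex-marker genes are left out and dotted lines mark 2-fold. Dlk1 (3.12 and 1.69) and Meg3 (1.85 and 2.14) lie in the upper right corner and the other 4 members near the origin.

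The joint detection of members in single cells was described next. The number of cells with both members was set against the number expected if detection were independent within each gate and depth quintile. Meg3-positive cells of the HSC gate had a median of 12921 UMIs and Meg3-negative cells 13386.5 in the chelator pool, and 12334 and 12808.5 in the control pool, whereas Dlk1-positive cells were deeper than negative ones, at 13791 and 13238, and at 14276 and 12682. Dlk1 and Meg3 were found together in 86 chelator cells where 30.5 were expected, a ratio of 2.82 (95% Poisson interval 2.25 to 3.48), and in 37 control cells where 14.5 were expected, a ratio of 2.55 (1.80 to 3.52). This was the 1 pair of 15 at 1.5 times the expected number or more in each pool. Not every pair could reach that line. Gnas was found in nearly every cell, so its pairs were bound to lie near 1 (197 Dlk1-Gnas cells found and 196 expected in the chelator pool). Pairs with the common Grb10 or Ndn had less room above 1 than Dlk1 and Meg3. The other 14 pairs lay between 0.991 and 1.16 in the chelator pool and between 0.853 and 1.28 in the control pool. With sex marker as a further stratum the ratio of Dlk1 and Meg3 was 2.37 and 2.15. In the HSC gate 53.1% of Dlk1-positive cells (44.7 to 61.3) and 14.5% of Dlk1-negative cells (12.5 to 16.7) of the chelator pool had Meg3, and 42.9% (32.1 to 54.1) and 14.6% (12.5 to 16.8) in the control pool.

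**Figure D4:**
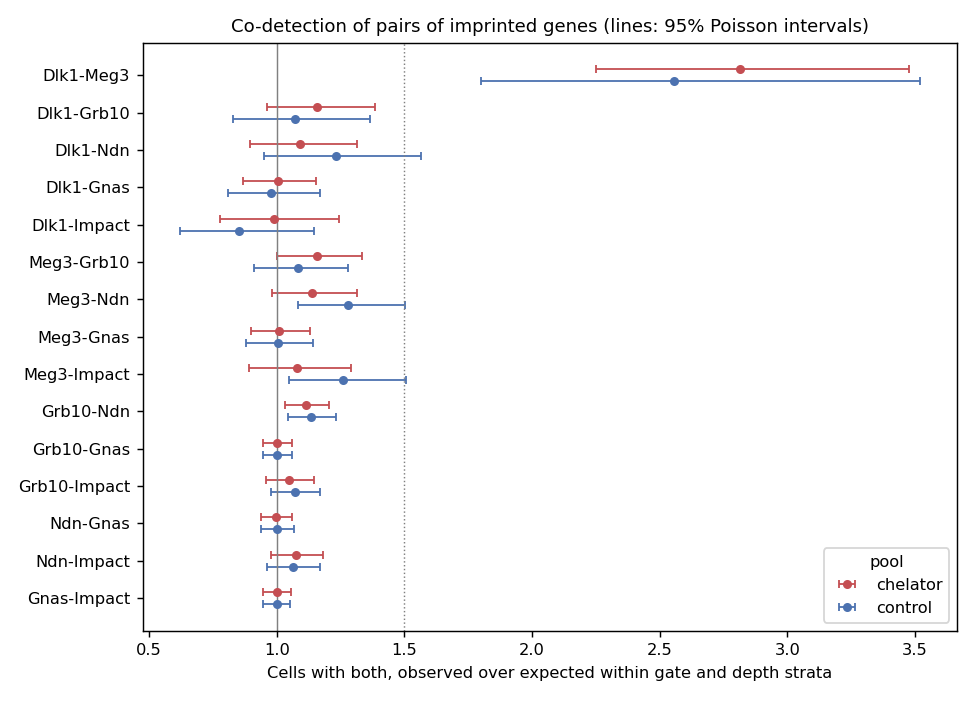
Number of cells with both genes of a pair over the number expected within gate and depth strata (horizontal axis) for the 15 pairs of measured members (vertical axis) in the chelator (red) and control pools (blue); points are ratios, lines 95% Poisson intervals, the solid line marks 1 and the dotted line 1.5. The Dlk1-Meg3 pair lies at 2.82 and 2.55, and the other pairs lie between 0.853 and 1.28. Pairs with Gnas, found in nearly every cell, are bound to lie near 1.

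Grb10 and Ndn, each found in most HSC-gate cells, were found together slightly more often than expected, with 652 cells found and 584 expected in the chelator pool (ratio 1.12, 95% Poisson interval 1.03 to 1.20) and 559 and 493 in the control pool (1.13, 1.04 to 1.23). Among HSC-gate cells Ndn was in 64.3% of Grb10-positive cells (60.8 to 67.6) and 54.2% of Grb10-negative cells (49.8 to 58.6) of the chelator pool, and in 60.6% (56.9 to 64.3) and 48.0% (43.3 to 52.7) of those of the control pool. Grb10-positive cells were also deeper, with a median of 13943 UMIs against 12093 in negative cells of the chelator pool and 13456 against 11553.5 in the control pool. Of the 4 stem-gate members, all 4 were found in 36 chelator and 19 control cells of the HSC gate, 2.75% and 1.63%, and none of the 4 in 14.5% and 17.6%. In the MPP4 gate 87.1% and 86.2% of cells had none of the 4, and 0 of 1285 and 0 of 1507 cells had all 4.

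Joint detection within the locus also took in Rian. Rian was found in 17.8% of Meg3-positive (95% Clopper-Pearson interval 13.3 to 23.2) and 0.940% of Meg3-negative HSC-gate cells (0.452 to 1.72) of the chelator pool, and in 17.1% (12.1 to 23.2) and 1.13% (0.567 to 2.02) of those of the control pool. Meg3 and Rian are transcribed in the same direction from the maternal copy, and how reads between them were assigned is not given in the sources used. When every gene with at least 5 expected joint cells was ranked by the smaller of its ratios in both pools, with gate, depth and sex marker as strata, Rian came first for Meg3 among 12476 genes, at 3.93 and 3.86, and Dlk1 second, at 2.37 and 2.15. Next came Pdgfc and Igf1, both growth factor genes, at 2.02 and 2.19 for Pdgfc and 1.99 and 2.37 for Igf1. For Dlk1, Meg3 came first of 11752 genes by the same rule. Smtnl1, Igsf10 and Wfdc17 followed at 1.85 and 1.92, 1.79 and 1.75, and 2.04 and 1.72. Within single pools Meg3 ranked 4 of 12477 genes for Dlk1 in the chelator pool and 9 of 11759 in the control pool. Dlk1 ranked 4 of 13008 and 7 of 12527 for Meg3. The median over all such genes was 1.003 and 1.01 for Dlk1 and 1.01 and 1.02 for Meg3. These companions were chosen after their values were seen.

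Within the HSC gate, Meg3-positive and Meg3-negative cells differed on the surface. The centred log ratio of a tag (its log count less the mean over all tags of the cell) was compared between positive and negative cells for 117 surface tags. Meg3-positive cells had more Sca-1 (Ly-6A/E), by 0.32 and 0.28, more CD51, by 0.38 and 0.26, and more CD61, by 0.21 and 0.23, in the chelator and control pools. CD51 and CD61 are the chains of the integrin alpha-V beta-3, a receptor for extracellular matrix. No isotype control antibody differed by more than 0.08 in the chelator pool or 0.10 in the control pool. Ranked by the smaller of the differences in both pools, the same integrin chains led among tags higher in Dlk1-positive cells. CD61 was higher by 0.18 and 0.19 and CD51 by 0.30 and 0.14. CD49b was close behind, by 0.13 and 0.40. Isotype controls differed by sizes of up to 0.15 and 0.09. Differences of similar size ran downward: CD5 was lower in Dlk1-positive cells, by -0.28 and -0.23, and so was I-A/I-E, the class II antigen-presenting molecule, by -0.21 and -0.28. The RNA of the integrin genes was compared in the same cells. Itgav, the CD51 gene, stood at 19.3 CPM in Meg3-positive and 17.0 in Meg3-negative cells of the chelator pool, with a ratio of 1.13 (95% exact interval 0.855 to 1.49), and at 18.2 and 18.9 CPM in the control pool, with a ratio of 0.960 (0.695 to 1.30). Itgb3, the CD61 gene, stood at 79.8 and 71.9 CPM (ratio 1.11, 0.970 to 1.27) and at 83.3 and 73.8 CPM (ratio 1.13, 0.973 to 1.30). In Dlk1-positive and Dlk1-negative cells of the chelator pool Itgb3 stood at 81.3 and 72.3 CPM (ratio 1.12, 0.957 to 1.32). In the control pool Itgb3 stood at 95.3 and 73.7 CPM (ratio 1.29, 1.07 to 1.56). Itgav was not higher in Dlk1-positive cells, with a ratio of 0.983 (0.682 to 1.38) in the chelator pool. Its ratio in the control pool was 0.875 (0.540 to 1.35).

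Read the other way, the CD51 tag sorted HSC-gate cells by Meg3. Of the 328 chelator cells with the most CD51, 38.4% had Meg3 (95% Clopper-Pearson interval 33.1 to 43.9), against 4.57% (2.58 to 7.43) of the 328 with the least. For the 291 control cells at each end these shares were 28.5% (23.4 to 34.1) and 5.15% (2.91 to 8.36). Depth ran the other way, with a median of 11691.5 UMIs in the highest and 16640 in the lowest CD51 cells of the chelator pool, and 11141 and 17058 in the control pool. Xist cells made up 15.2% of the highest and 22.3% of the lowest CD51 cells in the chelator pool, and 25.4% and 33.3% in the control pool. Within Y-linked cells alone the Meg3 shares were 44.1% and 5.88% in the chelator pool and 35.3% and 5.23% in the control pool, and within Xist cells 17.3% and 2.67%, and 15.3% and 3.53%. Between the cells highest and lowest in any of the 9 isotype controls, taken in the same numbers, the Meg3 share differed by at most 4.88 percentage points in the chelator pool and 4.47 in the control pool. Other surface tags split Meg3 as well. In the chelator pool the Meg3 shares were 28.4% and 5.79% for CD61, 30.2% and 7.01% for CD274, and 30.8% and 7.01% for CD24. In the control pool they were 26.5% and 8.59%, 25.1% and 12.0%, and 22.3% and 13.1%. Dlk1 was found in 21.3% and 3.96% of cells highest and lowest in CD51 in the chelator pool, and in 10.997% and 5.84% in the control pool, where the intervals overlapped. Grb10 was found in 61.9% and 60.7%, and in 59.5% and 57.7%.

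**Figure D5:**
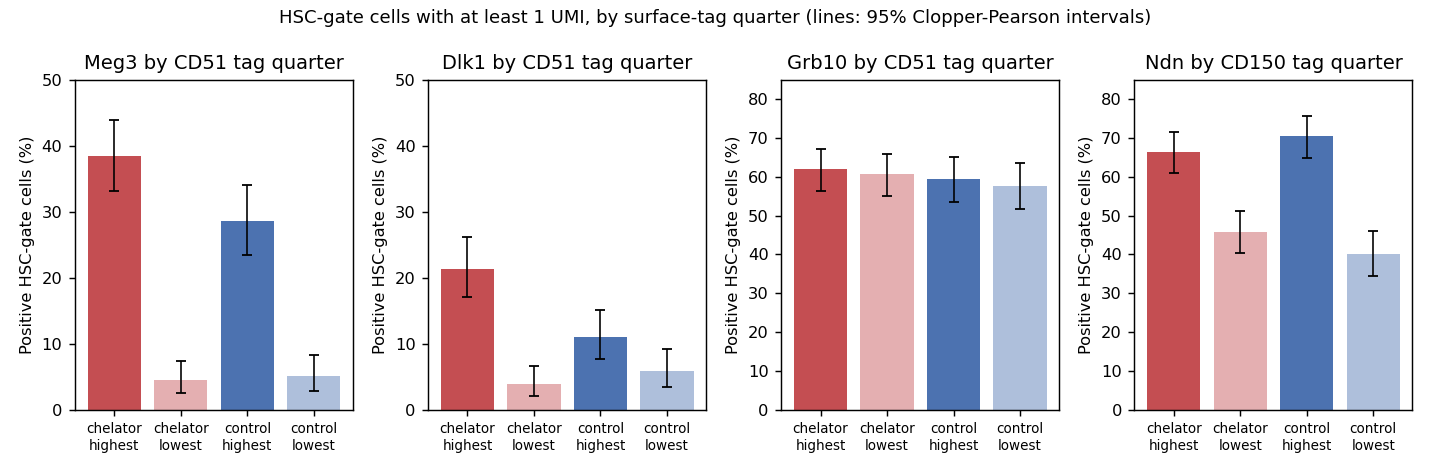
Share of HSC-gate cells with at least 1 UMI (vertical axis, percent) of Meg3, Dlk1 and Grb10 in the 328 chelator and 291 control cells with the most (solid) and the least CD51 tag (pale), and of Ndn by the CD150 tag, in the chelator (red) and control pools (blue); lines are 95% Clopper-Pearson intervals. Meg3 is at 38.4% and 4.57% in the chelator pool and at 28.5% and 5.15% in the control pool, and Grb10 is level.

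Ndn shared part of the surface pattern of Meg3. Ndn-positive HSC-gate cells had more Sca-1, by 0.19 and 0.13 in the chelator and control pools. They had more CD51, by 0.11 and 0.10, and more CD61, by 0.12 and 0.10, where isotype controls reached 0.04 and 0.07. Larger differences were seen for CD150, higher by 0.27 and 0.43, and CD38, higher by 0.22 and 0.27. CD49b was lower, by -0.15 and -0.31. Of the chelator cells with the most CD150, 66.5% had Ndn (95% Clopper-Pearson interval 61.1 to 71.6), against 45.7% (40.2 to 51.3) of those with the least. In the control pool these shares were 70.4% (64.8 to 75.6) and 40.2% (34.5 to 46.1). Isotype controls split Ndn by up to 12.8 percentage points in the chelator pool and 9.62 in the control pool, less than the CD150 tag. Within Y-linked cells the shares were 68.6% and 47.5% in the chelator pool and 73.2% and 39.9% in the control pool, and within Xist cells 64.0% and 41.3%, and 69.4% and 35.3%. CD150 also defines the gate, and this difference lies among cells already above its threshold. Median depth was 13390 and 12728 UMIs in the cells highest and lowest in CD150 in the chelator pool and 12946 and 12179 in the control pool. For Grb10 the largest difference seen in both pools was with CD48, lower by -0.11 and -0.11 in positive cells, and with CD5, by -0.11 and -0.23, where isotype controls reached 0.08 and 0.06. More CD150 was also seen in Grb10-positive cells of the control pool, by 0.21, but by 0.0074 in the chelator pool. Grb10 was found in 68.4% and 48.8% of control cells highest and lowest in CD150. These shares were 59.1% and 55.5% in the chelator pool.

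The RNA of the HSC gate split along the same members. Meg3-positive cells held 2405 CPM of the 8 HSC markers in the chelator pool, against 1678 CPM in Meg3-negative cells, and 2386 against 1759 CPM in the control pool, with 6 of 8 and 8 of 8 markers higher. Procr and Hlf were among the markers higher in both pools. Procr, the gene of the EPCR receptor, stood at 245 and 137 CPM in Meg3-positive and Meg3-negative chelator cells. In control cells it stood at 241 and 168 CPM. Hlf, a stem-cell transcription factor, stood at 511 and 323 CPM, and at 547 and 356 CPM. Megakaryocyte markers such as Pf4 summed to 136 and 459 CPM in the chelator pool and to 112 and 441 CPM in the control pool, and erythroid markers to 9.79 and 52.7 CPM and to 14.2 and 31.5 CPM. Cycling markers were lower in Meg3-positive cells too, at 336 and 671 CPM, and less so in the control pool, at 587 and 687 CPM. Granulocyte and monocyte markers were also higher in sum, at 949 and 658 CPM in the chelator pool (ratio 1.44) and at 910 and 629 CPM in the control pool (1.45), with 1 of 4 and 2 of 3 measured markers higher; nearly all of the sum was Prtn3. Stromal markers stood at 7.20 and 7.22 CPM in the chelator pool and 4.73 and 7.19 CPM in the control pool. Meg3-positive cells had 16.4 and 18.2 CPM of T and NK cell markers, against 41.8 and 63.2 CPM in negative cells of the chelator and control pools. These sums rest on few genes: of the 4 markers, 1 and 2 reached the UMI minimum. In Meg3-positive cells 3 and 2 of the 4 had 0 UMIs.

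Dlk1-positive cells showed part of this. HSC markers summed to 2193 CPM in Dlk1-positive and 1759 CPM in Dlk1-negative chelator cells, and to 2104 and 1843 CPM in control cells. Of the 8 markers, 6 were higher in the chelator pool and 5 in the control pool. Megakaryocyte markers summed to 176 and 431 CPM, and to 175 and 404 CPM. Cycling markers, at 616 and 610 CPM in the chelator pool and 753 and 663 CPM in the control pool, were not lower. Ndn-positive cells held fewer megakaryocyte markers, at 305 and 569 CPM and at 279 and 532 CPM, and all 8 HSC markers were higher in both pools. In Grb10-positive and Grb10-negative cells the HSC markers stood at 1803 and 1819 CPM in the chelator pool and at 1910 and 1779 CPM in the control pool. Here 3 of 8 and 7 of 8 markers were higher in Grb10-positive cells. Cells are not replicates, so these are descriptions of the pools with no test.

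Other genes of imprinted loci showed how common these patterns were. Of 53 further imprinted genes in the files, 36 had 50 UMIs over both pools, led by H13, Ube3a, Kcnq1ot1 and Commd1, whose log2 ratios, chelator over control, were -0.02, 0.02, -0.06 and 0.03. Past the line were 2 higher and 4 lower, where 4.22% of genes tested were higher and 4.06% lower. The median log2 ratio of these 36 was -0.03, against -0.0015 over all genes. Asb4, a ubiquitin-ligase adaptor gene, had 150 and 93 UMIs in the chelator and control pools, a log2 ratio of 0.62 (95% exact interval 0.23 to 1.01), and stood at 6.65 and 4.296 CPM in the HSC gate. Ddc had 43 and 21 UMIs, a log2 ratio of 0.96 (0.18 to 1.79). Those lower were Mest (26 and 45 UMIs), Tfpi2 (23 and 39), Ascl2 (24 and 36) and Peg3 (40 and 48), and the intervals of Ascl2 and Peg3 held 0.

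Between gates, 10 of 29 further imprinted genes were past 2-fold higher in the HSC gate than in the MPP4 gate of the chelator pool and 9 of 29 in the control pool, where 12.4% and 11.4% of all tested genes were, and 0 were lower. Their median log2 ratio was 0.56 and 0.59, against 0.03 and 0.02 over all genes. Cdkn1c, the gene of the cell-cycle inhibitor p57, stood at 73.9 CPM in the HSC gate and 7.79 in the MPP4 gate of the chelator pool, and at 81.9 and 8.99 CPM in the control pool. Snrpn, from the same imprinted region of chromosome 7 as Ndn, stood at 8.25 and 0.387 CPM, and at 9.92 and 0.594 CPM. Rian, Asb4, Airn, Htr2a, Phlda2 and Peg12 were past 2-fold in both pools, Sgce and Zrsr1 in the chelator pool and Mkrn3 in the control pool.

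Genes of pathways next to the members are given for comparison. Of 16 measured genes of insulin-like growth factor and mTOR signalling, 0 were past the line between the pools over all LSK cells, where 8.28% of all tested genes were. Igf1r, the receptor that Grb10 binds, stood at 93.4 and 91.8 CPM in the chelator and control pools and Igfbp4 at 312 and 307 CPM, with log2 ratios of 0.03 and 0.03. Akt1 and Foxo3 gave -0.04 and -0.09. The median of the 16 was -0.04, against -0.0015 over all genes. Of 9 measured Notch receptors, ligands and targets, 1 was past the line, a share near that of all genes. Jag2, a Notch ligand, stood at 4.87 CPM in the chelator pool and 3.72 in the control pool, a log2 ratio of 0.39 (95% exact interval 0.14 to 0.64), and at 7.84 and 5.81 CPM in the HSC gate. Notch2, Rbpj and Notch1 gave -0.06, 0.00 and 0.09. Of 15 measured genes that keep imprints (Trim28, Dnmt1, Ctcf and Ezh2 the most abundant, at log2 ratios of 0.03, 0.08, 0.01 and 0.01), 0 were past the line over all LSK cells and 0 in the HSC gate, where 8.28% and 8.31% of all genes were, with medians of -0.02 and -0.09.

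Over the 5 main gates in both pools, 10 points per gene, each member's level was compared with that of the 10418 genes with at least 500 UMIs, as Pearson's r of log2(CPM + 1). The points share the same pools and the gates' depths, so r is a description. Ndn was most like Gnb5, Wwtr1 and Plag1 (0.996 to 0.997), Grb10 most like Txnrd3, Tmem40 and Ptpn14 (0.993 to 0.995), and Meg3 most like Adgrg2, Bod1 and Otub2 (0.977 to 0.987). Dlk1 was most like Sox18, Dsg2 and Nrg4 (0.966 to 0.978), Gnas most like Hdac2, Ube2g1 and Larp4 (0.971 to 0.985), and Impact most like Dnajb2, Hs1bp3 and Phf1 (0.974 to 0.978). Among the members, r was 0.96 for Grb10 and Ndn and 0.88 for Dlk1 and Meg3. The pair with the highest ratio of cells found to cells expected was thus not the pair most alike over gates.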

How the data were processed

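The authors deposited a matrix for each condition that holds unnormalized UMI counts of genes, of 126 surface tags, 9 being isotype controls, and of 2 hashtags. Seurat 4.3.0, Cell Ranger 7.0.0 and mm10 are named in the submitters' processing notes, while the matrix header names Cell Ranger 7.0.1. Annotation release, barcode filters and hashtag assignment: not given in the sources used here. Each matrix was tied to its condition by its name and its hashtag.

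Barcodes were kept from 500 detected genes upward if mitochondrial genes gave less than 10% of their UMIs (39 chelator and 57 control barcodes removed). No doublet caller was run. Cells with at least 2 Xist UMIs and no UMI of 4 Y-linked genes were called Xist cells, and those with a Y-linked UMI and no Xist, Y-linked cells; 52 chelator and 35 control cells had at least 2 of each kind. Gates came from a 2-component mixture of each tag's centred log ratio. UMI sums were divided by total gene UMIs (66508812 chelator, 63240358 control) to give CPM. Ratios carry exact conditional binomial, sums exact Poisson and shares Clopper-Pearson 95% intervals. With 1 pool per condition no p-value was computed. Genes needed 50 UMIs over both sums, and lines were set at a log2 ratio of 0.322 between pools and at 2-fold between gates or sexes. The step was first tested on simulated counts with known folds. Named were the members, of each list the 4 most abundant genes and those past the fold, and the 3 genes nearest in pattern. Members and lists were chosen with earlier results of these data known. Python 3.11.15, numpy 2.4.6, scipy 1.17.1, pandas 2.3.3, scikit-learn 1.9.0 and matplotlib 3.10.9 were used.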

Additional observations from a re-analysis of the deposited data

Results flagged for a closer look

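Grb10 and Gnas differed between pools in opposite directions in the sexes, and these differences between Xist and Y-linked cells were not tested across animals. Over all LSK cells the log2 ratio of Grb10, chelator over control, was 0.59 in Xist cells and -0.31 in Y-linked cells. In the HSC gate it was 0.17 in Xist cells, with an interval that held 0 (-0.0324 to 0.378), and -0.29 in Y-linked cells. The HSC gate, where Grb10 was highest, made up 33.4% of chelator and 24.0% of control Xist cells. Gnas had log2 ratios of -0.0476 in Xist cells and 0.0678 in Y-linked cells over all LSK cells. In the HSC gate its ratios were -0.11 and 0.14.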

How the results depend on the processing

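No paired analysis was possible because each condition was 1 pool with no replicates. Of 6 measured members, 1 was past the line between the pools over all LSK cells; it was 2 with a stricter cell filter, with cells thinned to 5000 UMIs and without the 2 richest cells, Meg3 then being at log2 ratios of 0.323, 0.39 and 0.34, and 4 in Xist cells alone. In the HSC gate 2 were past it, and 1 in Xist cells alone, in Y-linked cells alone, with gate thresholds lowered by 0.25 and at a 1.5-fold line. In Xist cells alone Dlk1 showed no clear difference between the pools. Its log2 ratio was -0.0132 over all cells, with an interval that held 0 (-0.736 to 0.688). In the HSC gate it was -0.75, from 17 chelator and 32 control UMIs, too few for the UMI minimum. That interval held 0 too (-1.69 to 0.145), and 21 of the 32 control UMIs came from 1 cell. With no UMI minimum, which lets in H19, Igf2 and Plagl1, these counts were 3 and 5, that between the HSC and MPP4 gates of the control pool was 7 instead of 4, and those between sexes were 4 in the chelator and 5 in the control pool instead of 2; with at least 200 UMIs the last was 1, as Dlk1 was left out. Co-detected pairs, 1 in each pool, were 0 in each in Xist cells alone, where the Dlk1-Meg3 pair had under 5 expected cells, 6 in each with no strata, and 4 in the chelator pool from 2 UMIs. The Dlk1-Meg3 ratio lay between 2.31 and 5.63 in the chelator pool and between 2.13 and 4.99 in the control pool over 11 alternatives each. Leaving out cells with both sex markers, chosen after seeing the data like the comparison of sexes, equal weighting and sex strata, moved no count by over 1.5 times. The causes were not tested. Few UMIs limit what can be said of H19, Igf2 and Plagl1, and of Dlk1 in Xist cells.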

Other observations

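In the HSC gate, 0.15% of 11304 genes were past 2-fold lower in Y-linked than in Xist cells in both pools, and 15 of them were not sex markers. They were listed after their values were seen, and no test was run. They were Muc1, 5830444B04Rik, Gbp4, Gbp6, Myl10, Creb5, Gm20663, Gvin1, Tgtp1, Igtp, Serpina3f, Gpc5, H2-Eb1, Iigp1 and Rorb. Their log2 ratios of Y-linked over Xist cells lay between -2.59 and -1.04 in the chelator pool and between -3.90 and -1.07 in the control pool.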
